A study of Homo sapiens with 12 samples.

Results

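The genes described here are the 7 CDK inhibitor genes CDKN1A, CDKN1B, CDKN1C, CDKN2A, CDKN2B, CDKN2C and CDKN2D, together with MTAP, a neighbour of CDKN2A on chromosome 9. They were taken as the rows of the deposited count table whose gene symbol equalled a member, which gave 8 of 60591 genes. All 8 were among the 19108 genes that passed the filter on low counts, and for CDKN2A, CDKN2B and MTAP it was the PC9 libraries that carried them past it. PC9 and H1650 are established EGFR-mutant non-small cell lung cancer lines whose genotype is labelled wild-type, and the study asked whether drug-induced expression differed between them. Each line was sampled at T0, labelled as DMSO at 0 h with 0.1% DMSO as vehicle, and after 36 h in either 10 µM erlotinib or 0.1 µM osimertinib, both inhibitors of the EGFR kinase. Polyadenylated RNA was sequenced from 2 replicates of each of the 6 groups, 12 libraries in all.

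CDK inhibitors restrain the cyclin-dependent kinases that drive entry into and passage through the cell cycle. The CIP/KIP proteins p21 (CDKN1A), p27 (CDKN1B) and p57 (CDKN1C) bind complexes of cyclins with CDKs, whereas the INK4 proteins p16INK4a (CDKN2A), p15 (CDKN2B), p18 (CDKN2C) and p19 (CDKN2D) bind CDK4 and CDK6 and prevent their pairing with D-type cyclins. CDKN2A also encodes p14ARF, which inhibits MDM2 and so stabilises p53, and MTAP is the methionine salvage enzyme that cleaves methylthioadenosine. Loss of CDKN2A, often together with CDKN2B and MTAP, is a common event in lung and other cancers.

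The main pattern in PC9 was a rise of CDKN2B, CDKN1C, CDKN1B and CDKN2A under both drugs and a fall of CDKN2C, CDKN2D, CDKN1A and MTAP. All 8 genes passed the test under erlotinib, 4 higher and 4 lower, where 61.8% of all genes tested did (32.7% higher, 29.1% lower). All 8 also passed it under osimertinib, 4 higher and 4 lower, where 61.4% did (32.7% higher, 28.7% lower), and with backgrounds of this size the counts say little about these genes in particular. In H1650, CDKN2A and CDKN2B had 0 reads in all 6 libraries and MTAP had at most 8, which left 5 genes whose change could be estimated. Of these 5, 2 passed the test under erlotinib, 1 higher and 1 lower, beside 36.5% of all genes (18.0% higher, 18.5% lower). Under osimertinib 3 passed it, 1 higher and 2 lower, beside 35.7% of all genes (17.8% higher, 17.9% lower). The erlotinib count of 2 became 1 without H1650 erlotinib replicate 2, where CDKN1C was lost, and 4 without either PC9 erlotinib library or either H1650 osimertinib library, where CDKN2C and CDKN2D were added. Levels are given below as normalized CPM, a gene's reads scaled to a common library size, with erlotinib and osimertinib libraries always named after T0. Differences are log2 fold changes from edgeR's quasi-likelihood fit to all 12 libraries, with their standard errors, and a call means a Benjamini-Hochberg adjusted p under 0.05 over all genes tested.

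**Figure D1:**
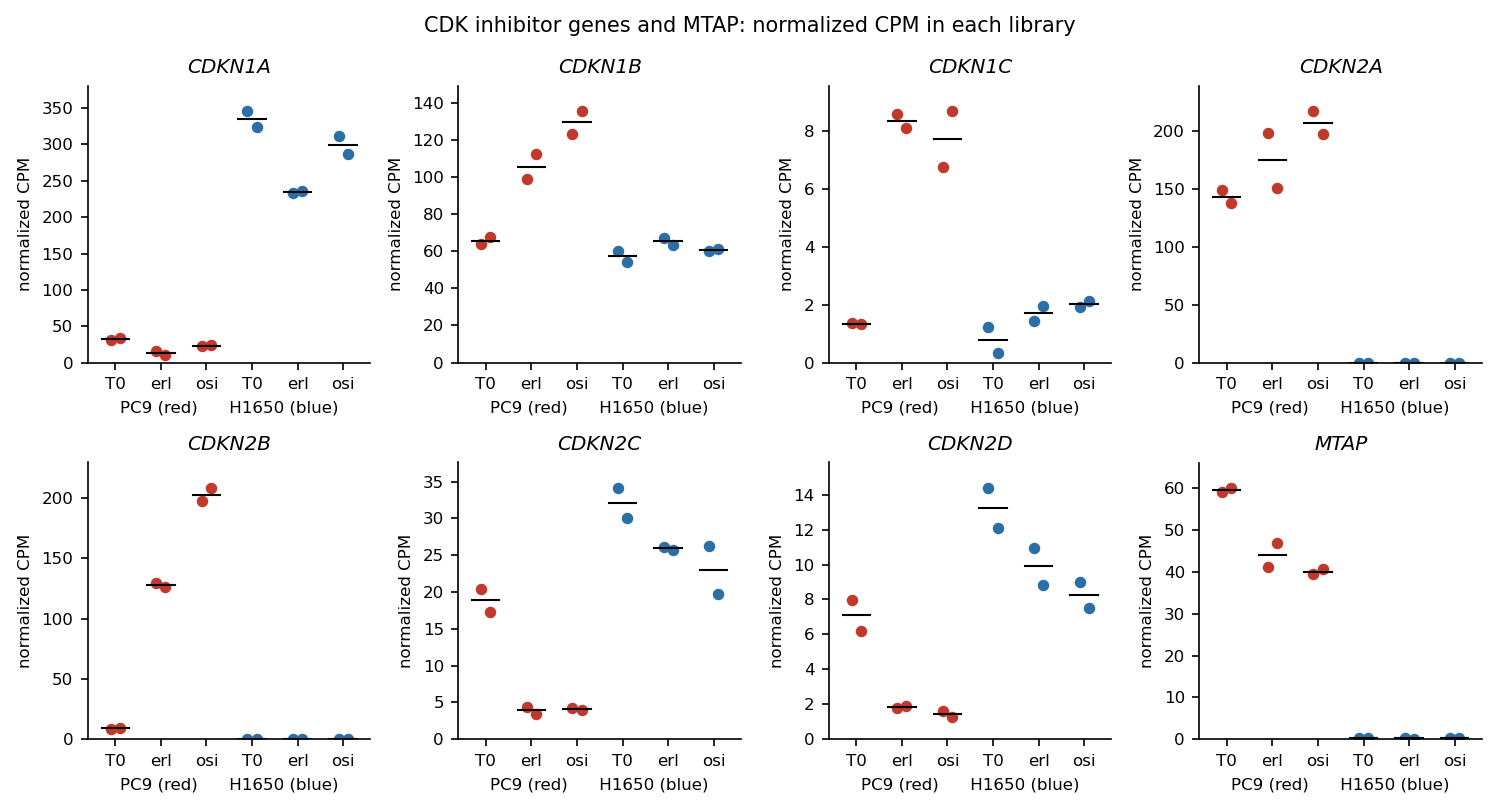
Normalized CPM (linear axes from 0) of each of the 8 genes in each library, with PC9 in red and H1650 in blue, points for the 2 libraries of a group and bars for their mean. CDKN2B climbed in PC9 from under 9 normalized CPM to between 126.5 and 208.8, and CDKN2A, CDKN2B and MTAP lie at or near 0 in H1650.

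The libraries held 17961765 to 26346187 counts, and the smallest level that 3 reads could show ranged from 0.116 to 0.168 normalized CPM, a limit that covers counting error only. Epithelial markers were abundant in both lines (EPCAM 199 to 541 normalized CPM, KRT8 2070 to 4280), whereas the lung lineage markers NKX2-1 and SFTPB had at most 2 and 4 reads and NAPSA 0.353 to 1.85 normalized CPM. Of 7 markers of other cell types, the leukocyte genes PTPRC and CD3E had at most 5 and 4 reads and the summed level was 11.3 to 48.6 normalized CPM, mostly COL1A1, with the highest sums (39.1 and 48.6) in PC9 under osimertinib. The mitochondrial share of reads was 4.37 to 5.36% at T0 and 5.77 to 7.20% in the treated libraries, so it moved with treatment in both lines, and its part in the changes was not tested. No 36-h vehicle library is among the samples, so drug and time in culture cannot be told apart in any comparison with T0. In these bulk samples a smaller number of cells expressing a gene and less RNA per cell cannot be told apart either. With 2 libraries per group, a standard deviation is itself imprecise.

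Promoter windows of the genes are shown first, and whether they bear on the changes was not tested. RefSeq windows on GRCh38.p14 ran from 250 bases before a transcription start to 50 after it. They were at hand for 7 of the 8 genes, all but CDKN1C, and numbered 10. The windows of CDKN2C and CDKN2D are not printed, and their matches are counted below. Capitals mark the GC box GGGCGG, or CCGCCC where it lies on the other strand, a sequence that SP1-family factors bind, with overlapping matches counted. The 6 windows printed are those of the CIP/KIP genes CDKN1A (chr6:36678464-36678763, + strand) and CDKN1B (chr12:12717118-12717417, + strand), the p16INK4a-side window (chr9:21974808-21975107, - strand) and the p14ARF-side window (chr9:21995275-21995574, - strand) of CDKN2A, CDKN2B (chr9:22009256-22009555, - strand) and MTAP (chr9:21802386-21802685, + strand).
CDKN1A: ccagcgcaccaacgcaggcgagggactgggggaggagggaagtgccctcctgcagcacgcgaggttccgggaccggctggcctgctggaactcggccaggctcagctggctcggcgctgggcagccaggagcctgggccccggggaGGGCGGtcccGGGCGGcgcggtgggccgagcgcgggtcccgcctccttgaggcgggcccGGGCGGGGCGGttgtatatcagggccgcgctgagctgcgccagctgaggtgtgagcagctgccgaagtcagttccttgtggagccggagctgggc
CDKN1B: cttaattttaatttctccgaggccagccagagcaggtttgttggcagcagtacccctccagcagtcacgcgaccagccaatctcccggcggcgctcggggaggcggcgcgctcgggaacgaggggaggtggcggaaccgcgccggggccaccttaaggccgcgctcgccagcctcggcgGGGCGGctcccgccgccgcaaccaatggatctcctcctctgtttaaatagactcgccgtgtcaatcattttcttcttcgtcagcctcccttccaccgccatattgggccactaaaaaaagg
CDKN2A, p16INK4a side: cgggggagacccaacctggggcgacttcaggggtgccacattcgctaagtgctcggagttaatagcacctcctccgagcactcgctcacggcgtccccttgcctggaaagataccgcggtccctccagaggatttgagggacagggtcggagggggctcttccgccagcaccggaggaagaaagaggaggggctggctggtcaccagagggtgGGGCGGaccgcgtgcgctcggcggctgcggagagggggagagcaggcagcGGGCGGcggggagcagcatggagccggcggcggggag
CDKN2A, p14ARF side: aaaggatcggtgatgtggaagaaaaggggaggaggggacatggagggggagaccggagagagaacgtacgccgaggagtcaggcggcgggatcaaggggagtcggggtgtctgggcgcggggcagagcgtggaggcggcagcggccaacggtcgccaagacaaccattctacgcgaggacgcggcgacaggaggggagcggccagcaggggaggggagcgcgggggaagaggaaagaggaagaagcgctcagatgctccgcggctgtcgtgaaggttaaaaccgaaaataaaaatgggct
CDKN2B: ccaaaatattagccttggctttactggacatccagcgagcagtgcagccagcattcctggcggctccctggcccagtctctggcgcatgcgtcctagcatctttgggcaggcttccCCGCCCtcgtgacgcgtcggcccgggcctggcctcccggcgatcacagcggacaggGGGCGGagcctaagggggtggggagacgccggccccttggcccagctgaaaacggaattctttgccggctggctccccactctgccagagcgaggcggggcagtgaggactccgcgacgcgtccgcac
MTAP: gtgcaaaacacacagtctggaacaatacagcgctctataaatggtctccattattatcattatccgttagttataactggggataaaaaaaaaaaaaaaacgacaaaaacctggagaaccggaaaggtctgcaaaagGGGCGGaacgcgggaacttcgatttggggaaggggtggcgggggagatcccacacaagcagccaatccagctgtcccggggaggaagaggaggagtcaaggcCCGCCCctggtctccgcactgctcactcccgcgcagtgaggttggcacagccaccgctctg

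The GC box occurred 4 times in the CDKN1A window, once in that of CDKN1B, 2 times each in those of CDKN2B and MTAP, and 3 times in that of CDKN2D. CDKN2A differed between its starts, with 2 matches on the p16INK4a side and 0 on the p14ARF side. Among the 3 windows of CDKN2C, the matches numbered 0, 6 and 1. Of all 35116 promoter windows of this length, 45.0% held a GC box, so its presence is common. The TATA box TATAAA was found in the MTAP window alone among the 10 (11.5% of all windows hold it), and the E-box CACGTG in 2 CDKN2C windows (7.26% of all). Neither the E2F-type letters TTTGGCGC or TTTCGCGC (1.15% of all windows) nor the FOXO-type letters GTAAACA (3.42%) occurred on either strand of these 10 windows. The GC content of the printed windows reached 74.3% for CDKN1A, beside a median of 58.7% over all windows, and MTAP was the lowest of the printed windows. These are matches of letters, and no binding was measured.

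CDKN1A, at chr6:36676460-36687339 on the + strand in GENCODE 29 on GRCh38, was the gene with the widest gap between the lines among those that both expressed. Its product p21 is a classical p53 target and inhibits CDK2 complexes. In PC9 it stood at 31.3 and 33.7 normalized CPM at T0, 15.3 and 10.8 under erlotinib, and 22.6 and 24.2 under osimertinib. The same groups in H1650 stood at 346 and 325, 233 and 236, and 311 and 287 normalized CPM. No pair of neighbouring groups overlapped in the order of levels, which ran H1650 T0, H1650 osimertinib, H1650 erlotinib, PC9 T0, PC9 osimertinib, PC9 erlotinib.

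CDKN1A fell by 1.33 (SE 0.112) on the log2 scale under erlotinib in PC9 (adjusted p = 3.14e-11) and by less under osimertinib, -0.48 (SE 0.107, adjusted p = 0.000311). In H1650 it fell by 0.52 under erlotinib (SE 0.0867, adjusted p = 2.53e-05), and the osimertinib difference of -0.16 (95% interval -0.34 to 0.01) did not pass the test (adjusted p = 0.146). The erlotinib change differed between the lines by 0.81 (H1650 minus PC9, SE 0.141, adjusted p = 2.86e-05), that is, the fall was steeper in PC9. For osimertinib the corresponding difference of 0.31 missed the threshold (95% interval 0.03 to 0.60, adjusted p = 0.068) and passed it without H1650 T0 replicate 1 (0.38, adjusted p = 0.0469), H1650 osimertinib replicate 2 (0.39, adjusted p = 0.0424) or either PC9 erlotinib library (0.32 each). Between the lines, CDKN1A was 10.3-fold higher in H1650 at T0 (log2 3.37, SE 0.0992, adjusted p = 1.69e-21), 18.1-fold under erlotinib and 12.8-fold under osimertinib. An antisense transcript, DINOL, overlaps its exons by 146 bases, and the strand setting of the counting is not given in the sources used here, so reads of the pair could not be separated there.

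CDKN1B (chr12:12715058-12722371, + strand) encodes p27, an inhibitor of cyclin E-CDK2 that accumulates in arrested cells. It read 63.8 and 67.5 normalized CPM at T0 in PC9, 98.9 and 112 under erlotinib, and 123 and 136 under osimertinib. H1650 libraries lay between 54.0 and 67.3 normalized CPM in all 3 conditions. Thus the PC9 groups stepped up without overlap, while the H1650 erlotinib libraries overlapped those of untreated PC9. The rise in PC9 was 1.61-fold under erlotinib (log2 0.69, SE 0.0837, adjusted p = 4.42e-08) and 1.97-fold under osimertinib (log2 0.98, SE 0.0839, adjusted p = 4.51e-11). H1650 gave 0.20 under erlotinib (95% interval 0.02 to 0.37, adjusted p = 0.0761) and 0.08 under osimertinib (95% interval -0.09 to 0.26, adjusted p = 0.494), neither past the test. Tested directly, the H1650 change minus the PC9 change was -0.49 for erlotinib (SE 0.119, adjusted p = 0.0014) and -0.89 for osimertinib (SE 0.12, adjusted p = 4.89e-07). At T0 the lines differed by -0.20 (H1650 against PC9, adjusted p = 0.0389), a call that was lost without PC9 T0 replicate 1 (-0.24, adjusted p = 0.0522), PC9 T0 replicate 2 (-0.16, adjusted p = 0.207) or H1650 T0 replicate 2 (-0.12, adjusted p = 0.331). The gap widened to -0.69 under erlotinib and -1.10 under osimertinib.

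CDKN1C (chr11:2883213-2885773, - strand), the gene of p57, an imprinted CIP/KIP inhibitor, had the fewest reads of the genes that both lines expressed. PC9 gave 27 and 27 reads at T0 (1.36 and 1.33 normalized CPM), 192 and 208 under erlotinib (8.60 and 8.12) and 146 and 155 under osimertinib (6.75 and 8.69). H1650 gave 26 and 9 reads at T0 (1.21 and 0.347 normalized CPM), 28 and 42 under erlotinib (1.45 and 1.96) and 40 and 48 under osimertinib (1.91 and 2.14). Treated libraries were above T0 in both lines, but the H1650 T0 replicates themselves stood far apart.

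In PC9 CDKN1C rose 6.18-fold under erlotinib (log2 2.63, SE 0.293, adjusted p = 8.48e-09) and 5.69-fold under osimertinib (log2 2.51, SE 0.298, adjusted p = 2.59e-08). In H1650 the estimates were 1.19 (SE 0.384, adjusted p = 0.016) and 1.43 (SE 0.37, adjusted p = 0.00299). Those H1650 calls rested on the T0 libraries: without H1650 T0 replicate 2 the estimates were 0.49 (adjusted p = 0.372) and 0.74 (adjusted p = 0.144), and without H1650 T0 replicate 1 they were 2.28 and 2.53. Leaving out H1650 erlotinib replicate 2 also ended the erlotinib call (0.94, adjusted p = 0.141). The difference between the lines in the erlotinib change was -1.44 (SE 0.506, adjusted p = 0.0233). It fell below the threshold without H1650 T0 replicate 1 (-0.33, adjusted p = 0.761) or H1650 erlotinib replicate 1 (-1.22, adjusted p = 0.0727). For osimertinib it was -1.08 (95% interval -2.10 to -0.05, adjusted p = 0.0869), and it was called without H1650 T0 replicate 2 (-1.77, adjusted p = 0.00284) and changed sign without H1650 T0 replicate 1 (0.03). CDKN1C was lower in H1650 under erlotinib (log2 -2.29, adjusted p = 3.9e-08) and osimertinib (log2 -1.92, adjusted p = 5.65e-07), while the T0 difference of -0.84 was not called (95% interval -1.67 to -0.02, adjusted p = 0.0638) but was without H1650 T0 replicate 1 (-1.96, adjusted p = 0.00079).

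CDKN2B (chr9:22002903-22009363, - strand), which encodes p15, a TGF-beta-inducible INK4 inhibitor, had the largest changes of the 8 genes. PC9 libraries held 173 and 180 reads at T0, 2901 and 3240 under erlotinib, and 4269 and 3724 under osimertinib. In normalized CPM these were 8.72 and 8.88, 130 and 127, and 197 and 209. All 6 H1650 libraries held 0 reads. Within PC9 the 3 conditions were far apart and did not overlap. The rise was 14.6-fold under erlotinib (log2 3.86, SE 0.0991, 95% interval 3.66 to 4.07, adjusted p = 7.63e-21) and 23.1-fold under osimertinib (log2 4.53, SE 0.0997, 95% interval 4.32 to 4.73, adjusted p = 5.15e-22). Leaving out any library kept these estimates between 3.84 and 3.88 and between 4.48 and 4.57.

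CDKN2A lies next to it at chr9:21967753-21995301 on the - strand, and its counts pool transcripts of p16INK4a and p14ARF, which start in different first exons. The PC9 levels were 149 and 138 normalized CPM at T0, 199 and 151 under erlotinib, and 218 and 197 under osimertinib. The erlotinib libraries were the most spread, from just above T0 to within the osimertinib range. CDKN2A was 1.22-fold higher under erlotinib (log2 0.28, SE 0.0975, adjusted p = 0.0143) and 1.45-fold under osimertinib (log2 0.53, SE 0.0976, adjusted p = 4.15e-05). The erlotinib call was lost without PC9 erlotinib replicate 1 (0.07, adjusted p = 0.575) or without PC9 T0 replicate 2 (0.22, adjusted p = 0.131). The longest run of identical bases between CDKN2A and CDKN2B transcripts was 80. Reads falling within it could be placed in either, and how many did was not measured. An antisense RNA, CDKN2B-AS1, overlaps CDKN2A exons by 341 bases.

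H1650 had 0 CDKN2A reads in 6 of 6 libraries. Set against the 3-read floor of the H1650 libraries, CDKN2A was at least 1123-fold lower in H1650 than in PC9 at T0, at least 1188-fold under erlotinib and at least 1499-fold under osimertinib. CDKN2B was at least 68.9-fold lower at T0, at least 871-fold under erlotinib and at least 1467-fold under osimertinib. Both genes passed the filter through PC9 alone, so these bounds are a description and no test between the lines is given. Since H1650 had no reads to change, no drug effect or difference in drug effect between the lines was estimated for either gene.

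CDKN2C (chr1:50960745-50974633, + strand) encodes p18. Its PC9 levels were 20.4 and 17.3 normalized CPM at T0, 4.34 and 3.47 under erlotinib, and 4.21 and 3.92 under osimertinib. In H1650 they were 34.2 and 30.1, 26.1 and 25.7, and 26.2 and 19.7. The treated PC9 libraries overlapped each other and lay far under T0, and the treated H1650 libraries lay under their T0 as well but above every PC9 library apart from untreated PC9 replicate 1, which exceeded the lower osimertinib library. CDKN2C fell 4.84-fold in PC9 under erlotinib (log2 -2.27, SE 0.161, adjusted p = 8.19e-13) and 4.62-fold under osimertinib (log2 -2.21, SE 0.165, adjusted p = 2.45e-12). In H1650 the osimertinib fall of 0.49 passed the test (-0.49, SE 0.127, adjusted p = 0.0032), though not without H1650 osimertinib replicate 2 (-0.29, adjusted p = 0.144) or H1650 T0 replicate 1 (-0.39, adjusted p = 0.0509). The erlotinib difference of -0.31 missed it (95% interval -0.57 to -0.05, adjusted p = 0.0574), and passed it in 5 of the 12 fits that left out a library.

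CDKN2D (chr19:10566462-10569059, - strand) encodes p19 and behaved alike in direction. PC9 libraries had 7.96 and 6.22 normalized CPM at T0, 1.79 and 1.87 under erlotinib, and 1.62 and 1.29 under osimertinib. H1650 libraries had 14.4 and 12.1, 10.9 and 8.85, and 9.02 and 7.53. The fall in PC9 was 3.85-fold (log2 -1.95, SE 0.219, adjusted p = 9.81e-09) under erlotinib and 4.82-fold (log2 -2.27, SE 0.236, adjusted p = 2.19e-09) under osimertinib. H1650 showed -0.42 under erlotinib (95% interval -0.77 to -0.08, adjusted p = 0.0506), which was past the test in 10 of the 12 fits that left out a library, and a fall under osimertinib (log2 -0.68, SE 0.17, adjusted p = 0.00227).

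The falls of both INK4 genes were steeper in PC9 than in H1650 by the test of the difference itself. For CDKN2C the changes differed by 1.97 under erlotinib (SE 0.206, adjusted p = 7.42e-09) and 1.72 under osimertinib (SE 0.21, adjusted p = 1.09e-07). For CDKN2D they differed by 1.52 (SE 0.278, adjusted p = 5.48e-05) and 1.59 (SE 0.297, adjusted p = 6.88e-05). In all, 5 of the 5 genes with an estimate in both lines had a called difference in the erlotinib change, 3 positive and 2 negative, beside 40.8% of all genes tested (21.1% positive, 19.8% negative). For the osimertinib change 3 of 5 had one, 2 positive and 1 negative, beside 41.9% (21.5% positive, 20.5% negative). Both genes were already higher in H1650 at T0, CDKN2C 1.70-fold (log2 0.77, adjusted p = 7.29e-06) and CDKN2D 1.87-fold (log2 0.90, adjusted p = 4.87e-05), and the ratios grew to 6.66-fold and 5.37-fold under erlotinib and to 5.62-fold each under osimertinib.

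**Figure D2:**
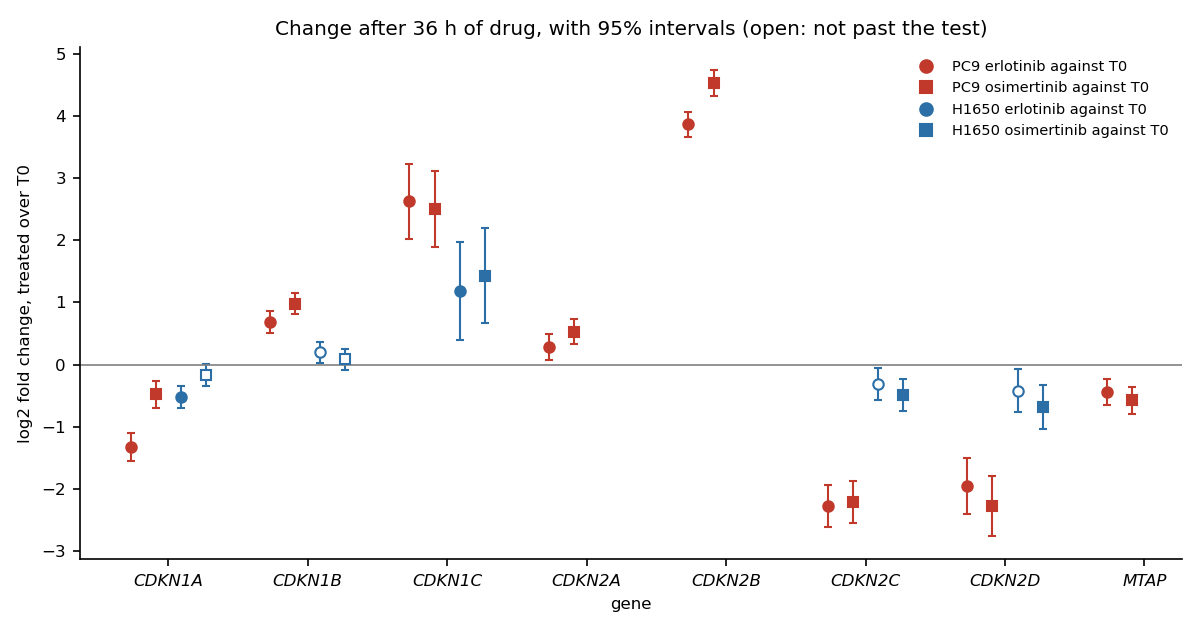
Log2 fold change of each gene, treated over T0, with 95% intervals, for erlotinib (circles) and osimertinib (squares) in PC9 (red) and H1650 (blue), open symbols marking differences that did not pass the test. CDKN2B reaches 3.86 and 4.53 in PC9, CDKN2C and CDKN2D lie near -2 in PC9 and between 0 and -0.68 in H1650, and no H1650 value is drawn for CDKN2A, CDKN2B or MTAP.

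MTAP (chr9:21802543-21937651, + strand) had 59.2 and 60.2 normalized CPM at T0 in PC9, 41.1 and 46.8 under erlotinib, and 39.4 and 40.7 under osimertinib. H1650 libraries held 8 and 5, 6 and 2, and 4 and 6 reads, at most 0.373 normalized CPM. MTAP was thus present in all PC9 libraries and close to the floor in all H1650 libraries. In PC9 it fell 1.36-fold under erlotinib (log2 -0.44, SE 0.103, adjusted p = 0.000514) and 1.49-fold under osimertinib (log2 -0.57, SE 0.104, adjusted p = 2.39e-05). The fitted level in H1650 was 213-fold lower at T0 (log2 -7.73, SE 0.202), 218-fold under erlotinib and 170-fold under osimertinib, given as a description because MTAP too passed the filter through PC9 alone. With so few reads the erlotinib value was -8.79 on the log2 scale without H1650 erlotinib replicate 1 and -7.13 without replicate 2. The pseudogene MTAPP1 had at most 2 reads in any library, and its longest identical run with MTAP transcripts was 20 bases. Exons of AL359922.1, AL359922.2 and ERVFRD-3 overlap those of MTAP, by up to 684 bases. AL359922.2 lies on the other strand. Reads of these genes and of MTAP could not be separated there.

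Of the 5 genes with at least 10 reads in a library of each line, 4 differed between the lines at T0, 3 higher and 1 lower in H1650, beside 69.6% of all genes (35.8% higher, 33.8% lower). Under erlotinib all 5 differed, 3 higher and 2 lower, beside 72.1% (36.7% higher, 35.4% lower). Under osimertinib all 5 differed too, 3 higher and 2 lower, beside 71.6% (36.6% higher, 35.0% lower). CDKN1A, CDKN2C and CDKN2D were higher in H1650 in all 3 conditions, CDKN1B was lower in all 3, and CDKN1C was lower under both drugs. CDKN2A, CDKN2B and MTAP are left out of these counts.

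The 0 counts in H1650 were not limited to these genes. CDKN2A and CDKN2B sit at 9p21 among other annotated genes. The 8 genes of the count table whose starts run from AL359922.2 through CDKN2B had 0 reads in 6 of 6 H1650 libraries. The AL359922.2 end was set after the counts were seen, so these 0 counts are a description only. The genes lie from position 21858910 to the end of CDKN2B-AS1 at 22121097 (262 kb). MTAP, with 31 H1650 reads in all, overlaps the start of that span. UBA52P6 and AL359922.1, which also overlap it, had 0 reads in both lines and are not counted. The same 8 genes had 37507 reads over the 6 PC9 libraries, 22285 of them in CDKN2A and 14487 in CDKN2B. A total of 0 reads over the H1650 libraries allows a level of up to 0.0228 normalized CPM, for counting error only. No DNA was measured, so a locus that is missing and one that is not transcribed cannot be told apart from these counts.

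On the MTAP side, TUBB8P1, a pseudogene within the first part of MTAP, had 6 H1650 reads, and the next genes outward with expression were IFNE (64 reads in H1650, 87 in PC9) and the long noncoding RNA MIR31HG, host of a microRNA (1722 and 2051). Further out, KLHL9, a ubiquitin ligase adaptor, had 7712 H1650 and 4180 PC9 reads, FOCAD 7494 and 3003, and MLLT3 2280 and 2799. HACD4, a fatty acid elongation enzyme, was the exception, with 98 reads in H1650 and 2405 in PC9. Of the interferon genes, IFNB1 had 29 reads in H1650 and 0 in PC9, IFNA1 had 11 in each, and IFNA2 had 0 in every library. On the CDKN2B side the first gene with H1650 reads was AL157937.1 (517 reads, 8 in PC9), followed by DMRTA1 (702 and 134), LINC01239 (234 and 48) and ELAVL2, a neuronal RNA-binding protein gene (4086 and 1). TUBB8P1, AL359922.2 and AL157937.1 were singled out after their values were seen.

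**Figure D3:**
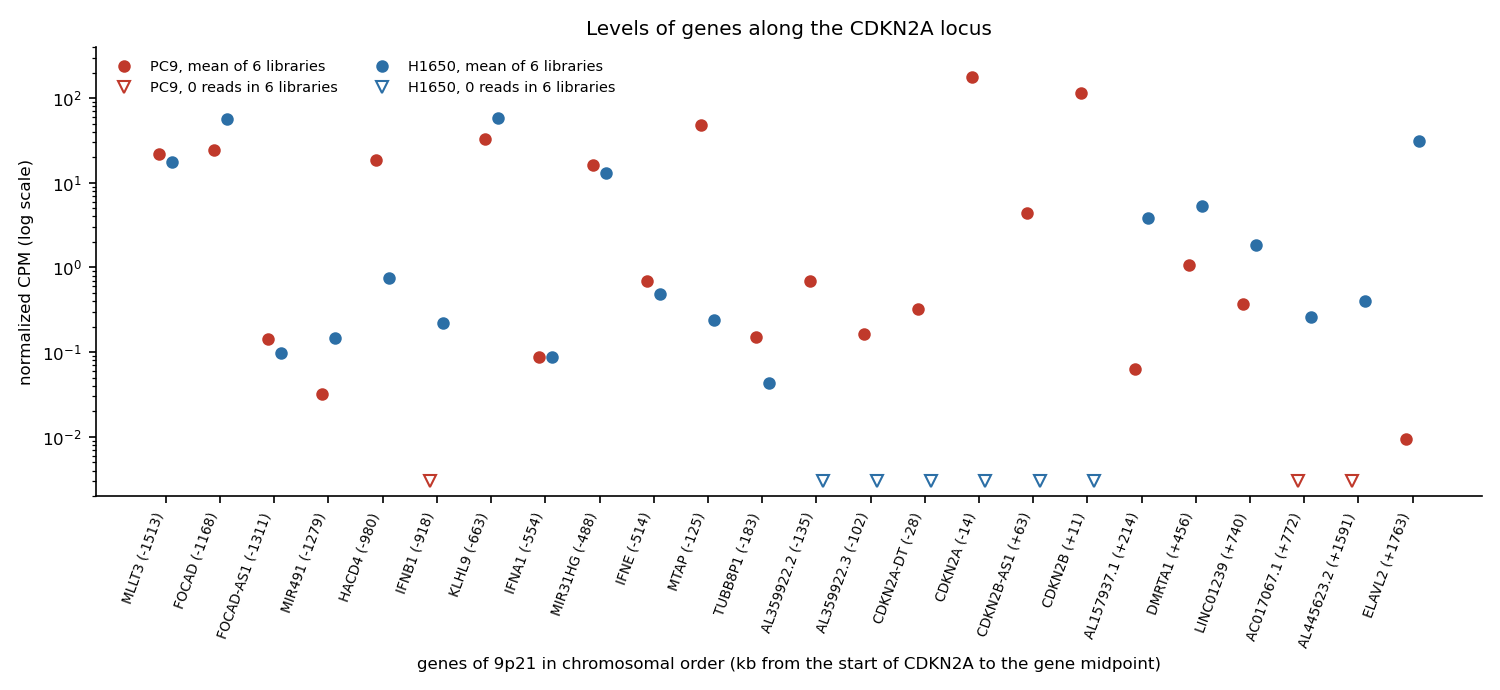
Mean normalized CPM over the 6 libraries of each line (log axis) for genes of 9p21 with over 20 reads in all, ordered by start position and labelled with the distance in kb from the CDKN2A start. Open triangles at the bottom mark genes with 0 reads in 6 libraries, and in H1650 they form 1 unbroken run from AL359922.2 to CDKN2B.

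Within PC9, the antisense RNA CDKN2B-AS1 had a mean of 3.39 normalized CPM at T0, 4.85 under erlotinib and 4.79 under osimertinib, differences of 0.52 (adjusted p = 0.0969) and 0.50 (adjusted p = 0.115) that did not pass the test. CDKN2A-DT had 41 reads in all PC9 libraries together and was under the filter. Of 10 tested genes in the list of 9p21 neighbours, 4 were higher and 1 lower under erlotinib in PC9, and 5 were higher and 2 lower under osimertinib, beside 61.8% and 61.4% of all genes called. In H1650 1 was higher and 1 lower under erlotinib and 2 each under osimertinib, beside 36.5% and 35.7%. The H1650 erlotinib count of 2 was 1 by DESeq2 and without replicate 1 of H1650 T0 or erlotinib, and 4 with a replicate block. The 10 include CDKN2B-AS1, with 0 reads in H1650, and ELAVL2, with 1 read in all in PC9. Neither could be called in that line, and for the same reason no median is given for this list. FOCAD was lowest over the 4 comparisons, with log2 changes of -1.54 under each drug in PC9 and of -0.35 and -0.52 in H1650. LINC01239 had 0 reads in both PC9 T0 libraries and means of 0.455 and 0.655 normalized CPM under the drugs. In H1650 LINC01239 went from 1.17 at T0 to 2.86 under erlotinib (log2 1.27, adjusted p = 0.00796) and 1.42 under osimertinib (adjusted p = 0.647).

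Levels of different genes were compared per kilobase of the gene length in the table. That length is near the union of all annotated exons (14527 bases for MTAP, 1505 for CDKN2D) and is not a transcript length. The orders below depend on it. Before this scaling, untreated PC9 had a mean of 59.7 normalized CPM for MTAP and 7.09 for CDKN2D. In untreated PC9 the order ran CDKN2A (33.2 ± 1.86 CPM per kb, SD, n = 2), CDKN1B (25.6 ± 1.01), CDKN1A (10.8 ± 0.580), CDKN2C (6.24 ± 0.736), CDKN2D (4.71 ± 0.820), MTAP (4.11 ± 0.0479), CDKN2B (2.20 ± 0.0289) and CDKN1C (0.544 ± 0.00812), where the CDKN2D and MTAP libraries overlapped. Under osimertinib CDKN2B led with 50.8 ± 2.01 CPM per kb, beside CDKN1B at 50.4 ± 3.38 and CDKN2A at 47.9 ± 3.29, and these 3 did not differ beyond their spread. Under erlotinib CDKN1B (41.2 ± 3.69) and CDKN2A (40.4 ± 7.84) overlapped and CDKN2B stood at 32.1 ± 0.609. H1650 had 1 dominant inhibitor transcript, CDKN1A, at 112 ± 5.01 CPM per kb at T0, 78.3 ± 0.574 under erlotinib and 99.9 ± 5.72 under osimertinib. Behind it in untreated H1650 came CDKN1B at 22.3 ± 1.75, CDKN2C at 10.7 ± 0.959, CDKN2D at 8.81 ± 1.08 and CDKN1C at 0.315 ± 0.247 CPM per kb.

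The drugs were also set side by side within a line, at doses that differed (10 µM erlotinib, 0.1 µM osimertinib), so these are differences between the conditions used and not between compounds at a matched dose. In PC9 3 of 8 genes were higher under osimertinib (10.1% of all genes were higher and 6.41% lower, 16.6% together). They were CDKN1A (0.85, adjusted p = 3.67e-06), CDKN2B (0.66, adjusted p = 7.54e-07) and CDKN1B (0.29, adjusted p = 0.0124), the last lost without PC9 erlotinib replicate 1 (0.20, adjusted p = 0.203) or PC9 osimertinib replicate 2 (0.22, adjusted p = 0.177). The other PC9 differences ran from -0.32 for CDKN2D (95% interval -0.90 to 0.26) to 0.25 for CDKN2A (95% interval 0.05 to 0.45, adjusted p = 0.0859), which was called without PC9 erlotinib replicate 1 (0.46, adjusted p = 0.00133). In H1650 1 of 5 genes passed the test, beside 8.75% of all genes (5.02% higher, 3.73% lower), namely CDKN1A at 0.35 (adjusted p = 0.00868), and it did not without H1650 erlotinib replicate 1 (0.34, adjusted p = 0.0522) or H1650 osimertinib replicate 1 (0.29, adjusted p = 0.131).

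Most of the kinases and cyclins that these proteins bind fell in both lines. Of 10 tested CDK and cyclin genes, 10 were lower under erlotinib and 9 under osimertinib in PC9, with medians of -2.42 and -2.28 on the log2 scale, and 6 and 10 were lower in H1650, with medians of -0.40 and -0.53. Of all genes tested, 29.1% and 28.7% were lower in PC9 and 18.5% and 17.9% in H1650. The medians over all genes tested were 0.07, 0.06, 0.01 and 0.00 in the same order. CDK1, the mitotic kinase, went from 269 ± 7.13 to 20.8 ± 1.50 normalized CPM under erlotinib in PC9 (log2 -3.69, adjusted p = 5.23e-23) and from 210 ± 3.85 to 127 ± 4.92 in H1650 (log2 -0.73, adjusted p = 1.33e-08). CDK6, the partner of D-type cyclins that INK4 proteins bind, had the smallest mean fall over the 4 comparisons. In PC9 it fell by 0.26 under erlotinib (adjusted p = 0.0124) and gave 0.17 under osimertinib, not past the test (adjusted p = 0.0939), and in H1650 it gave -0.52 (adjusted p = 2.99e-05) and -0.27 (adjusted p = 0.0146). CCND2 was under the filter.

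Among 8 pocket protein and E2F genes, which act downstream of CDK4 and CDK6, 7 were lower and 1 higher under each drug in PC9 (medians -1.11 and -0.97), beside 61.8% and 61.4% of all genes called. In H1650 2 were lower and 1 higher under erlotinib (median -0.08), a share near the 36.5% of all genes called. Under osimertinib 3 were lower and 1 higher (median -0.22), 4 of 8 beside 35.7% of all genes called. The erlotinib count of 3 was 1 without either H1650 T0 library or H1650 erlotinib replicate 1. E2F2 had the largest fall, from 29.8 ± 0.26 to 1.27 ± 0.478 normalized CPM under erlotinib in PC9 (log2 -4.57, adjusted p = 4.31e-18), and gave -0.12 in H1650 (adjusted p = 0.481). The gene that rose was RBL2, the pocket protein p130 of resting cells, by 1.08 and 1.20 in PC9 and by 0.32 and 0.26 in H1650, past the test in all 4.

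A list of 10 genes was drawn up for parts of the ubiquitin ligases that target CIP/KIP proteins. In PC9 8 were lower and 1 higher under erlotinib, and 7 lower and 2 higher under osimertinib (medians -0.59 and -0.54). Of all genes, 29.1% and 28.7% were lower. In H1650 7 were lower under erlotinib and 4 lower and 1 higher under osimertinib (medians -0.21 and -0.17), beside 18.5% and 17.9% of all genes lower. The erlotinib count of 7 was 2 without H1650 T0 replicate 2 and 3 without replicate 1 of H1650 T0 or erlotinib. The osimertinib count of 5 was 3 without replicate 1 of H1650 T0 or osimertinib. FBXW7, on the list but not an established receptor for CIP/KIP proteins, was among the genes higher under osimertinib in both lines. DTL, the substrate receptor that directs p21 to CUL4-DDB1, dropped from 53.9 ± 4.06 to 1.71 ± 0.313 normalized CPM under erlotinib in PC9 (log2 -4.99, adjusted p = 3.91e-21). In H1650 DTL went from 58.3 ± 1.04 to 47.0 ± 0.530 (log2 -0.31, adjusted p = 0.0138). CUL4B, the scaffold at the other end of the list, rose by 0.39 under each drug in PC9 (adjusted p = 1.98e-05 and 1.78e-05) and gave 0.11 and 0.10 in H1650, which did not pass the test.

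The p53 targets other than CDKN1A moved both ways. Of 23 tested, 12 were higher and 7 lower under erlotinib in PC9 (median 0.45) and 11 and 8 under osimertinib (median 0.23), beside 32.7% of all genes higher under each drug and 29.1% and 28.7% lower. In H1650 10 were higher and 4 lower under erlotinib (median 0.25, beside 18.0% and 18.5% of all genes). Under osimertinib 5 were higher and 3 lower (median 0.14), 8 of 23 beside 35.7% of all genes, a share near the background. MDM2, whose product degrades p53, was among those lower in PC9 under both drugs and in H1650 under erlotinib. At the ends were TP53INP1, an autophagy and stress gene, and AEN, an apoptosis-enhancing nuclease. TP53INP1 rose from 0.300 ± 0.0750 to 40.1 ± 0.859 normalized CPM under erlotinib in PC9 and from 8.85 ± 1.83 to 26.8 ± 1.90 in H1650 (log2 1.59, adjusted p = 4e-11). AEN fell by 2.75 and 2.63 on the log2 scale in PC9 and by 1.20 and 1.14 in H1650. EDA2R was under the filter.

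Of 16 known regulators of CDK inhibitor genes, 8 were higher and 3 lower under erlotinib in PC9 and 7 and 6 under osimertinib (medians 0.14 and 0.03), and 7 and 5, then 6 and 6, in H1650 (medians 0.11 and -0.04). Of all genes tested, 61.8% and 61.4% were called in PC9 and 36.5% and 35.7% in H1650. FOXO4, a forkhead factor of the family that activates CDKN1B, rose from 6.68 ± 0.0413 to 35.4 ± 4.09 normalized CPM under erlotinib in PC9 (log2 2.41, adjusted p = 8.4e-15). In H1650 FOXO4 rose from 2.71 ± 0.473 to 7.15 ± 0.104 (log2 1.38, adjusted p = 4.86e-07). Of the same family, FOXO3 was higher under each drug in both lines. FOXO1 was lower in PC9 (log2 -0.45 under each drug) and higher in H1650. EZH2, the Polycomb methyltransferase that silences the CDKN2A locus in many cells, fell by 2.17 and 2.11 in PC9 and by 0.41 and 0.58 in H1650, past the test in all 4 comparisons.

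MTAP was set beside a list made up mostly of enzymes of methionine salvage and polyamine synthesis, which supply its substrate and process its product. PRMT5, also on the list, belongs to neither route and was lower under each drug in both lines. Of 10 listed genes tested, 9 were lower under erlotinib and 8 under osimertinib in PC9 (medians -0.76 and -0.94), beside 29.1% and 28.7% of all genes. In H1650, where MTAP was near the floor, 6 were lower under each drug and 1 was higher under erlotinib (medians -0.49 and -0.42), beside 18.5% and 17.9% of all genes lower. ODC1, the first enzyme of polyamine synthesis, went from 542 ± 10.7 to 77.4 ± 3.56 normalized CPM under erlotinib in PC9 (log2 -2.81, adjusted p = 7.29e-22) and from 90.1 ± 5.26 to 65.0 ± 3.21 in H1650 (log2 -0.47, adjusted p = 1.39e-05). MRI1, the isomerase after MTAP in the salvage route, gave -0.04 and -0.12 in PC9 and 0.34 and 0.15 in H1650, none past the test. The counts of all these lists include genes chosen with earlier results of these data known and describe the lists only.

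**Figure D4:**
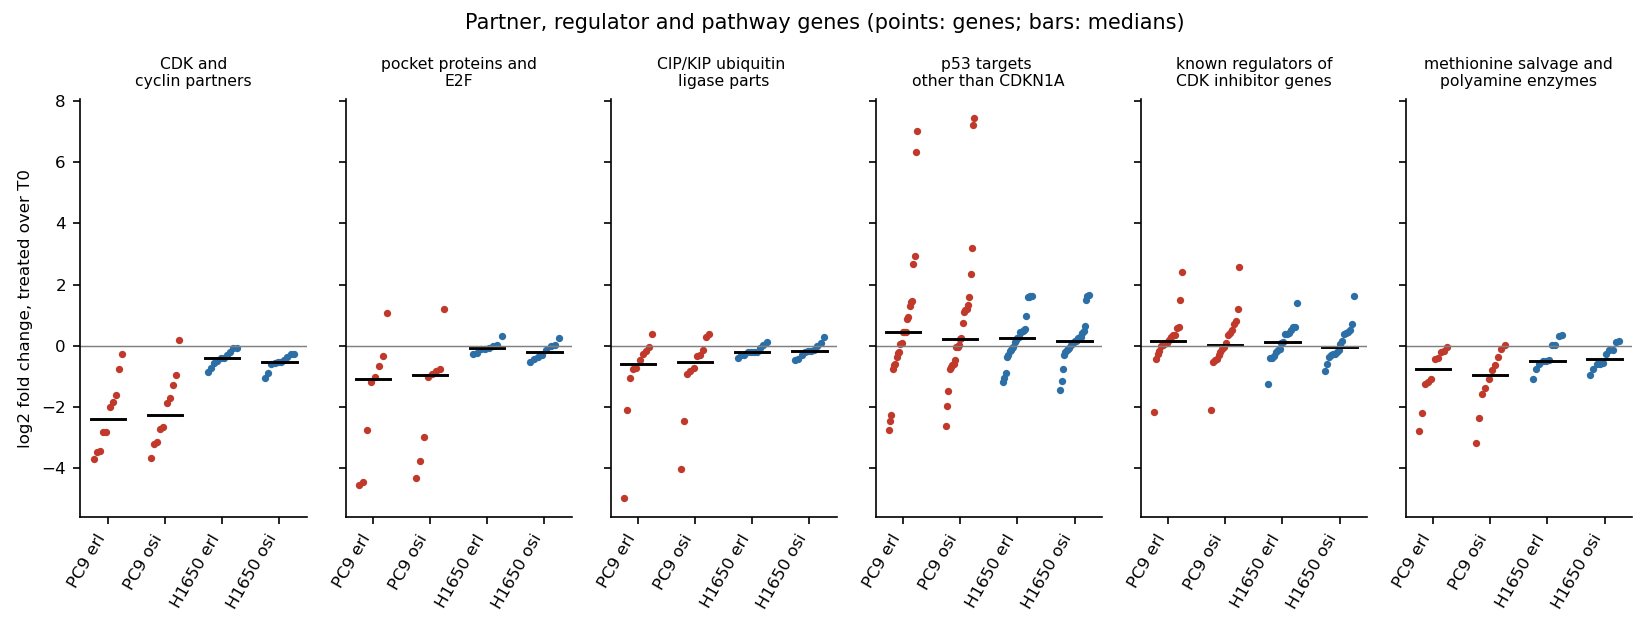
Log2 fold change, treated over T0, of each tested gene (points) of 6 lists of partner, regulator and pathway genes in the 4 drug comparisons, with PC9 in red, H1650 in blue and bars at the medians. The CDK and cyclin medians lie at -2.42 and -2.28 in PC9 and at -0.40 and -0.53 in H1650, whereas p53 targets scatter to both sides of 0.

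For each of the 8 genes the nearest patterns were sought among 14995 genes, as the smallest root-mean-square difference of centred log2 levels (normalized CPM plus 0.5) over the 12 libraries. LRP3 (0.224), COL17A1 and AC022784.1 were nearest to CDKN1A, and C1orf198 (0.108), STX5 and TBC1D32 to CDKN1B. AC103760.1 (0.267), GLCCI1 and ZNF862 were nearest to CDKN1C. Nearest to CDKN2A were NRCAM (0.301), CYP4F11 and SPP1, and nearest to CDKN2B, with larger distances, MUC20 (0.383), CES1 and NR0B1. NCAPD3 (0.153), AC092718.4 and ANKRD18A followed CDKN2C, and DCK (0.167), MCMBP and CNTLN followed CDKN2D. SYK (0.207), RAC2 and FSTL5 were nearest to MTAP. None of these was itself one of the 8 genes, and the libraries share lines and drugs, so the distances are descriptions only.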

How the data were processed

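Cells of both lines were harvested by the authors and their RNA was sequenced by a service provider. Reads went through the DolphinNext pipeline in the authors' hands. The deposited table, which is named for featureCounts, holds raw counts per gene with a gene length column. The submitters' notes name GRCh38 and DESeq2; the aligner, annotation release and strand setting are not given in the sources used here. GENCODE 29 was used for coordinates, and 69.9% of 55049 shared symbols had the same exon length as in the table. All 12 columns were mapped to samples by library name.

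Counts were analysed with edgeR 4.0.16 (R 4.3.3): filterByExpr by group, TMM factors (0.941 to 1.08), 1 quasi-likelihood fit over 6 groups, and Benjamini-Hochberg adjustment over 19108 genes at 0.05, with 41483 genes under the filter. Totals were 17961765 to 26346187 counts. A change was given only where a library of the groups compared held at least 10 reads, a rule set after the counts were seen, and bounds used 3 reads per library. Replicates are separate samples by their labels, described in the study as biological; counts of no pair agreed within sampling noise. The script was tested on simulated data. Members and lists (CDKs and cyclins, pocket proteins and E2F, CIP/KIP ubiquitin ligase parts, p53 targets, known regulators, methionine salvage and polyamine enzymes, 9p21 neighbours) were chosen with earlier results of these data known. AMD1 and CDKN2A-AS1 of these lists were not analysed here. Named were all members, the highest and lowest gene of each list by mean change, the 9p21 neighbours and the 3 nearest patterns per member. MDM2 was added after its values were seen. FBXW7, FOXO1, FOXO3 and PRMT5 were also named outside this rule. Alternatives were DESeq2 1.42.0, RLE and upper quartile factors, other filters, 1 fit per line, a replicate block and leaving out each library.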

Additional observations from a re-analysis of the deposited data

Results flagged for a closer look

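The changes under a drug differed between the lines by the drug-by-line term of the edgeR quasi-likelihood fit (Benjamini-Hochberg adjusted p under 0.05), taken as the H1650 change minus the PC9 change on the log2 scale, for the following genes. Under erlotinib the difference was 0.81 for CDKN1A, -0.49 for CDKN1B, -1.44 for CDKN1C, 1.97 for CDKN2C and 1.52 for CDKN2D. Under osimertinib it was -0.89 for CDKN1B, 1.72 for CDKN2C and 1.59 for CDKN2D. In each case the PC9 estimate was the larger in size and had the same sign as the H1650 estimate. In H1650, however, CDKN1B was not called under either drug, nor were CDKN2C and CDKN2D under erlotinib. The sign in H1650 is thus not established for those changes. The CDKN1C value is the least secure, since it was -0.33 (adjusted p = 0.761) without H1650 T0 replicate 1, where 9 reads were left in the H1650 T0 group. CDKN2A, CDKN2B and MTAP could not be compared in this way because H1650 had at most 8 reads of them in any library. With 2 libraries per group, single libraries were not tested for standing apart.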

How the results depend on the processing

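Over 67 estimated changes of the members, 1188 of 1245 alternative values kept their direction and side of the threshold, 16 lost the call, 37 gained it and 4 changed sign. The sign changes all came from leaving out 1 library and none of the sign-changed values was called: CDKN1C in the osimertinib difference between lines (-1.768 to 0.031 over the libraries left out, the positive value without H1650 T0 replicate 1), CDKN1C in PC9 (-0.308 to 0.058) and CDKN2C in PC9 (-0.092 to 0.229) and H1650 (-0.393 to 0.018), the last 3 for osimertinib against erlotinib. The number of members called in H1650 under erlotinib, 2 in the report, was 4 with RLE factors, without a filter and with 1 fit per line, 5 with the replicate block, and 1 to 4 with single libraries left out (1 without H1650 erlotinib replicate 2, and 4 without either PC9 erlotinib or either H1650 osimertinib library). The count for osimertinib against erlotinib in H1650 was 0 to 1 with libraries left out. Among the lists, the 9p21 neighbours called in H1650 under erlotinib numbered 1 by DESeq2 and 4 with the block, and 1 to 2 with libraries left out (1 without replicate 1 of H1650 T0 or erlotinib). Leaving out libraries gave 1 to 3 pocket protein and E2F genes in H1650 under erlotinib (1 without either H1650 T0 library or erlotinib replicate 1). It gave 2 to 7 ligase genes under erlotinib (2 without H1650 T0 replicate 2, 3 without replicate 1 of T0 or erlotinib) and 3 to 5 under osimertinib (3 without replicate 1 of H1650 T0 or osimertinib). The cause was not tested.

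Replicate numbers are shared across groups, but deviations of same-numbered libraries correlated at only -0.0671 to 0.0947, so the numbers were not treated as pairs. A replicate block nevertheless raised the number of genes called in every comparison. For osimertinib against erlotinib in H1650 it went from 1672 to 2670, and for H1650 erlotinib against T0 from 6966 to 7821. A shared replicate effect was not tested. With the block, 6 member changes gained a call, CDKN1A (H1650 osimertinib, -0.16, and its difference between lines, 0.32), CDKN1B (H1650 erlotinib, 0.20), CDKN2A (PC9 osimertinib against erlotinib, 0.26), CDKN2C (H1650 erlotinib, -0.30) and CDKN2D (H1650 erlotinib, -0.43), and none was lost. In H1650 CDKN1C had 9 to 48 reads per library and MTAP 2 to 8.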
